A study of Mus musculus with 84 samples.

Results

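The genes described here encode the proteins of the cytosolic ribosome, measured by bulk RNA sequencing of mouse ventrolateral striatum. They were taken from the gene table as every symbol that starts with Rpl or Rps and a digit, with Rplp0, Rplp1, Rplp2 and Rpsa added. Pseudogene symbols with -ps and the Rps6k kinases were left out, and a total of at least 8400 counts over the 84 libraries was required. The rule found 82 of the 43629 genes in the table. They comprise 42 proteins of the large (60S) subunit, 31 of the small (40S) subunit, 3 proteins of the ribosomal stalk, 5 paralogs and 1 gene, Rps19bp1, whose product binds a ribosomal protein and is not a subunit. Another 10 symbols of the family lay below the floor. The nearest above it were Rps27l (19995 counts) and Rps4l (21566 counts), and the nearest below it Rpl37rt (3978) and Rps3a2 (1513), so no gene lay close to the floor. Rpl24, a standard large-subunit gene, had 709 counts in the table and is therefore not among the 82. Of the 100-base stretches in its transcripts, 49% also occur in other genes. How such reads were counted is not given, so its count is uncertain.

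Adult, untreated animals of the strains SOT and NOT (S4) were used, which come from a selection on 2 traits, ethanol preference and withdrawal. The labels give 44 animals as High Drinker (21 females, 23 males) and 40 as Low Drinker (18 females, 22 males), and no treatment was given in either group. The labels do not say which strain each group name stands for, so the groups are called by their own names. Each library is labelled as 1 animal, and the p-values treat the animals as independent although litters are not given.

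Every cytosolic ribosome carries 1 copy of nearly all of these proteins, so cells make them in matched amounts. Their messenger RNAs are short, abundant and begin with a run of pyrimidines, the TOP motif, through which mTOR signalling adjusts their translation to nutrients and growth signals. In neurons, ribosomes in the soma, dendrites and axons supply the protein synthesis on which synaptic plasticity depends.

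Libraries held 22190363 to 41300401 counts. The 18 medium spiny neuron markers, which define the main cell type of the striatum, were all detected. Their summed level ran from 1643 to 21256 CPM, counts scaled by library size, in High Drinker animals (median 7710) and from 1246 to 17668 CPM in Low Drinker animals (median 6545). The 10 cortical glutamatergic neuron markers ran from 1105 to 4446 CPM and from 1005 to 5281 CPM. An earlier pass over these data set 5 libraries apart, High Drinker 17 and Low Drinker 8, 32, 33 and 34, and values are given without them where that changes a result. The sample numbers in the titles run in 3 sets of 48, 30 and 6 libraries, which may be processing batches, and the set was a term in each model. In bulk tissue, fewer cells of a type and less RNA per cell cannot be told apart.

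The start sites were searched for the pyrimidine run. RefSeq (GRCm38.p6) gave a start for 61 of the 82 genes, with 72 starts in all. The windows below hold 15 bases on each side of the RefSeq start for the most abundant genes per length with an entry (Rps27, Rps15 and Rpl4), and for Rpl7a and Rpl27a, chosen after their values were seen because they have the longest runs. Capitals mark the longest run of C and T.
Rps27, chr3:90213634-90213663, minus strand: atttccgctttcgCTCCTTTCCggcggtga
Rps15, chr10:80292416-80292445, plus strand: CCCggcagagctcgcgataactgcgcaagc
Rpl4, chr9:64173372-64173401, plus strand: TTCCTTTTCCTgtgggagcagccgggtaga
Rpl7a, chr2:26910792-26910821, plus strand: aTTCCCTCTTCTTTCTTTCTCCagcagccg
Rpl27a, chr7:109519180-109519209, plus strand: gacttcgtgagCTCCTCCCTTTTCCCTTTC
The run was 21 bases in Rpl7a and 3 in Rps15. A run of at least 8 pyrimidines on the gene strand lay in 38.9% of the 72 starts and in 12% of the 32851 starts in the table. Over the 300 bases around the start, searched on both strands, CCGGAAG (the core bound by ETS factors) was present in 36.1% of the 72 starts against 8.86% of all starts. AAGATGG, the YY1 core, was present in 16.7% against 6.34%, and TATAAA, the TATA box, in 9.72% against 13.6%. These letters describe the windows, and binding was not measured.

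Levels among the genes spanned a wide range. CPM per kilobase of the table's gene length was highest for Rplp1 (843), which encodes an acidic stalk protein that recruits translation factors, followed by Rps27 (558), Rps15 (484), Rps29 (359) and Rpl4 (326). The table's length for Rps27, on which this scale rests, is 255 bases, the length of its coding sequence. The lowest levels per kilobase were those of Rps4l (8.62), Rps27l (9.24), Rpl36al (13), Rpl7l1 (15.1) and Rpl35a (19.3), so that 4 of the 5 lowest are paralogs. The median over the 82 genes was 87.3 CPM per kilobase, with 131 for the 40S genes and 76.5 for the 60S genes. Each gene varied modestly among animals. The coefficient of variation of CPM over the 84 libraries was below 20% for 55 genes, 20 to 30% for 25 genes and above 30% for 2, Rpl29 (70.7%) and Rps4l (35.9%).

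The main feature of these genes was that they moved together from animal to animal. The 82 genes took 0.824% of a library's counts at the lowest, 1.08% at the median and 2.14% at the highest. High Drinker libraries ran from 0.824 to 1.55% (median 1.07%) and Low Drinker libraries from 0.835 to 2.14% (median 1.10%), so the groups overlapped over most of their range. Low Drinker 8 had the largest share. It held the highest value of 69 of the 82 genes, and 81 genes lay above their own median there. Low Drinker 6, 12, 15 and 28 and High Drinker 6 and 17 also had 81 genes above their median. All 82 lay above it in Low Drinker 26 and High Drinker 14. At the other end, 81 genes in Low Drinker 23 and 79 in High Drinker 43 lay below their median. On the mean log2 CPM of the 82 genes, the highest library, Low Drinker 8, stood 2.17-fold above the lowest. Low Drinker 8 is 1 of the 5 libraries set apart. Without those 5 the range was 1.89-fold and the largest share 1.65%.

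**Figure D1:**
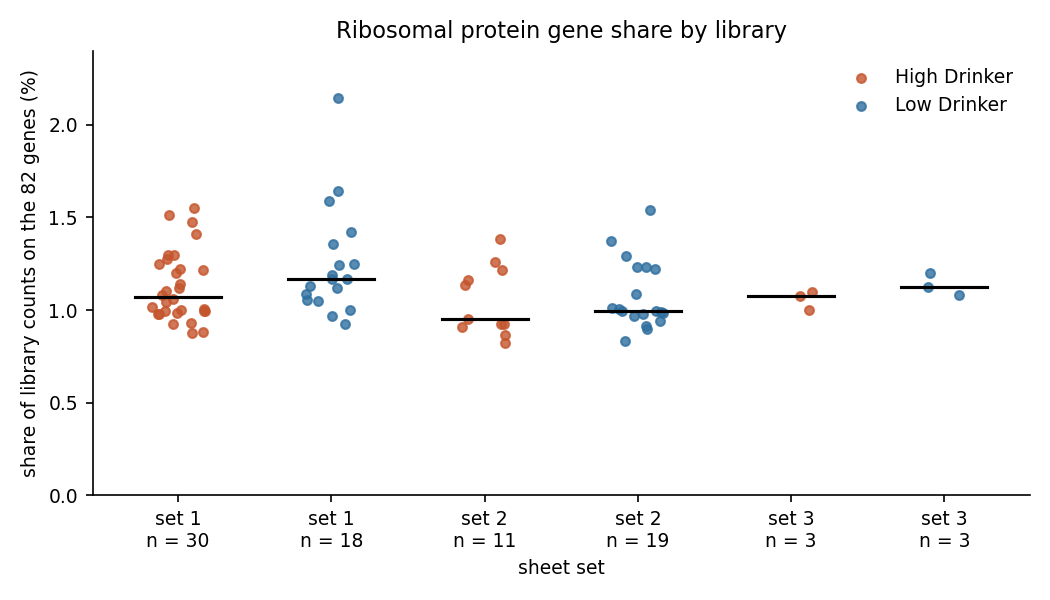
Share of each library's counts that fell on the 82 ribosomal protein genes (y axis, percent), by sheet set and group (x axis). Points are libraries and lines are medians. The groups overlap in each set, and 1 Low Drinker library in set 1 stands highest at 2.14%.

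Across the 84 libraries the residual log2 CPM, after removal of set, sex and group, had a median Pearson r of 0.851 over the 3321 pairs of these genes, and r exceeded 0.5 in 86.3% of the pairs. Over all pairs of the 17071 tested genes the median was -0.003 and 5.72% exceeded 0.5. The genes share libraries, depth and short length, so r is a description with no test. The median was 0.874 between large-subunit and small-subunit genes, 0.860 within the 60S and 0.894 within the 40S genes. The first principal component of the scaled residuals held 78.7% of the variance and the second 3.80%. The median r was 0.826 in High Drinker animals, 0.871 in Low Drinker animals, 0.864 in set 1, 0.850 in set 2 and 0.832 without the 5 libraries set apart. Several other functional groups had lower medians, 0.680 for 75 nuclear-encoded oxidative phosphorylation subunits, 0.689 for 14 proteasome core subunits, 0.507 for 76 mitochondrial ribosomal proteins and 0.140 for 38 translation initiation factors. Markers of medium spiny neurons (0.946) and oligodendrocytes (0.919) had higher medians.

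Most genes followed the common level closely. For 57 of the 82, r with the mean of the others exceeded 0.9. The highest were Rpl13 (0.975), Rps20 (0.973), Rps27a (0.971), which encodes ubiquitin fused to a small-subunit protein, Rpl35 (0.971) and Rpl26 (0.970). Rpl13 ranged from 115 to 205 CPM in High Drinker animals (median 144) and from 115 to 265 CPM in Low Drinker animals (median 147). The lowest 5 were Rpl29 (0.183), Rps4l (0.321), Rpl15 (0.441), Rplp0 (0.503) and Rpl22l1 (0.506), with Rps18 next at 0.508. Rpl15, a large-subunit protein, ran from 55.1 to 117 CPM with a coefficient of variation of 12.3%, below the median of 18.5% for the 82 genes.

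Rps18 and Rplp0 each have a near-identical retrocopy with its own row in the table, an intronless copy made by reverse transcription of the mRNA and placed elsewhere in the genome. Rps18 (chr17:33951999-33956001, mm10) encodes a protein of the small subunit head, and Gm10260 (chr13:97760130-97760588) matches 455 of its 459 coding bases. Rplp0 (chr5:115559467-115563727) encodes the central stalk protein, and Gm8730 (chr8:102864779-102865853) matches 942 of its 954 coding bases. The stretches of 150 coding bases with the most differences are shown, from base 282 of Rps18 and base 298 of Rplp0, with differing bases in capitals, to show how little separates a read of the gene from one of the copy.
Rps18: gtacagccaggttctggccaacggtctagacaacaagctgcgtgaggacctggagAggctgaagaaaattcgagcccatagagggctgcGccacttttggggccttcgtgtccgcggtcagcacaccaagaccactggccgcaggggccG
Gm10260: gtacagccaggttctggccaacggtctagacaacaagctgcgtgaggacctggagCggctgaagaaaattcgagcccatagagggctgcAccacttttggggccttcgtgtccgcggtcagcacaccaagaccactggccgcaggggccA
Rplp0: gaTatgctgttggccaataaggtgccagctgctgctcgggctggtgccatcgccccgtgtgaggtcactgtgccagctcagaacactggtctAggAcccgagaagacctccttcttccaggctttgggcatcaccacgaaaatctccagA
Gm8730: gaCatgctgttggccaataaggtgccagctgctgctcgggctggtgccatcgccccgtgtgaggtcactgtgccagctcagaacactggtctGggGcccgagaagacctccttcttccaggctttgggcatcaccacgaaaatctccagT
Identity over the whole coding sequence was 99.1% for Rps18 with Gm10260 and 98.7% for Rplp0 with Gm8730.

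The share of the pair's counts on the copy fell into 3 separate bands of libraries. For Rps18 with Gm10260, 26 libraries had at most 0.111% on the copy, 39 had 16.3 to 22.4% and 19 had 39.3 to 45.5%. High Drinker animals made up 15, 19 and 10 of these bands, and Low Drinker animals 11, 20 and 9. For Rplp0 with Gm8730 the bands held 16 libraries at up to 0.228%, 45 at 8.14 to 12.3% and 23 at 18.8 to 23.4%. High Drinker animals made up 8, 26 and 10 of them, and Low Drinker animals 8, 19 and 13. Rpsa, the 40S protein also known as the laminin receptor precursor, formed 3 bands with Rpsa-ps10 on chromosome 3, of 9 libraries at up to 0.173%, 36 at 16.1 to 20.9% and 39 at 28.8 to 35.3%. These Rpsa bands held 6, 23 and 15 High Drinker animals and 3, 13 and 24 Low Drinker animals. Rpl3 with Rpl3-ps1 on chromosome X formed 3 bands at lower shares, of up to 0.146% in 9 libraries, 2.09 to 3.46% in 39 and 4.51 to 7.32% in 36. They held 8, 18 and 18 High Drinker animals and 1, 21 and 18 Low Drinker animals. Bands were separated at the 2 widest gaps of the sorted shares, after the values were seen, and the bands were not compared in a test. Each band held libraries of both groups, and of the 9 libraries in the lowest Rpl3-ps1 band 8 were High Drinker.

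Each gene was then summed with its retrocopy rows, and r with the other genes moved by more than 0.05 for 2 genes, Rps18 and Rplp0. The r of Rps18 with the other genes went from 0.508 to 0.875 and its coefficient of variation from 29.7 to 17.5%. For Rplp0 r went from 0.503 to 0.717 and the coefficient of variation from 27.5 to 18.5%. Rpl29, Rps3a1, Rps15a, Rpl14 and Rpl3 also tended to lie further below the other genes where their closest copy was higher, and no pooled r is given because shares or levels of several of these genes fall into separate clusters. Rpl3 went from 0.852 to 0.890 and Rpsa from 0.763 to 0.780, and the median r over all pairs from 0.851 to 0.858. How the counting assigned reads that match both a gene and its copy is not given in the sources used here.

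**Figure D2:**
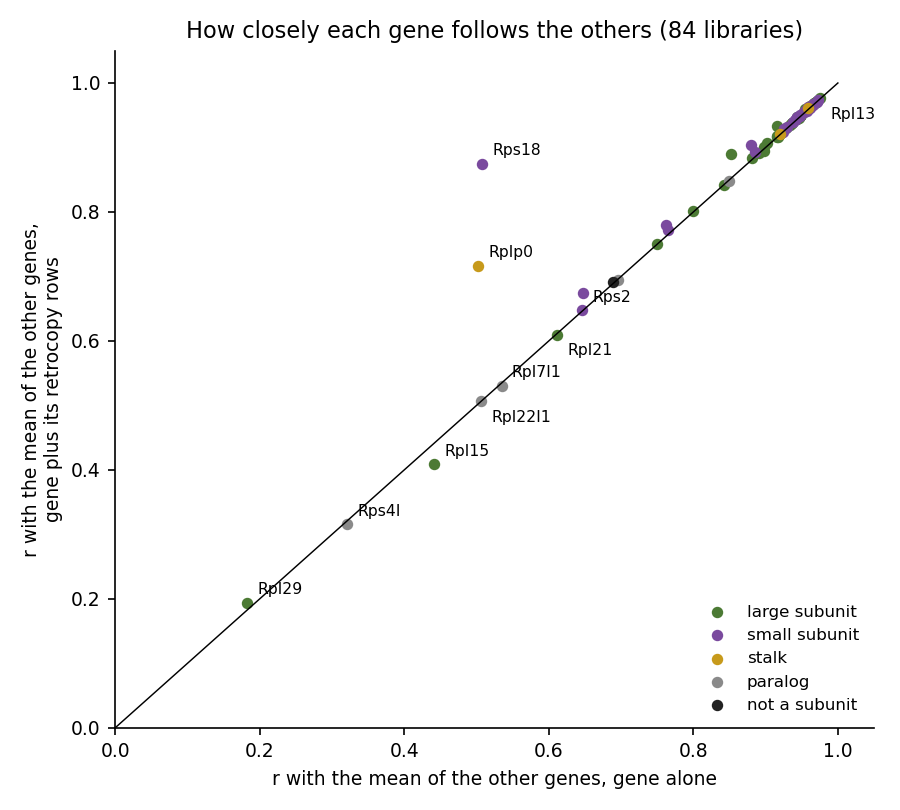
Pearson r of each gene with the mean of the other genes over 84 libraries, for the gene alone (x axis) and with its retrocopy rows added (y axis); points are genes coloured by subunit and the line marks equal values. Rps18 (0.508 to 0.875) and Rplp0 (0.503 to 0.717) leave the line, while Rpl29, Rps4l and Rpl15 stay near it at the low end.

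Rpl29, which encodes a small basic protein at the surface of the large subunit (chr9:106429454-106431568), has as its closest copy Gm8210, which matches 480 of its 483 coding bases and ran from 0 to 2.31 CPM. The libraries fell into 2 clusters with a 2.98-fold gap between them: 32 libraries at 5.49 to 10.1 CPM and 52 at 29.9 to 95.1 CPM. The lower cluster held 11 of the 44 High Drinker and 21 of the 40 Low Drinker animals, with 16 libraries of set 1, 13 of set 2 and 3 of set 3. Within the clusters Rpl29 followed the other genes with r = 0.636 (n = 32) and r = 0.538 (n = 52), against 0.183 over all 84 libraries. With its 19 pseudogene or retrocopy rows added, r over all libraries was 0.194. Inside the lower cluster the median was 8.55 CPM among High Drinker animals and 7.71 CPM among Low Drinker animals, and inside the upper cluster 43.9 and 43 CPM.

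**Figure D3:**
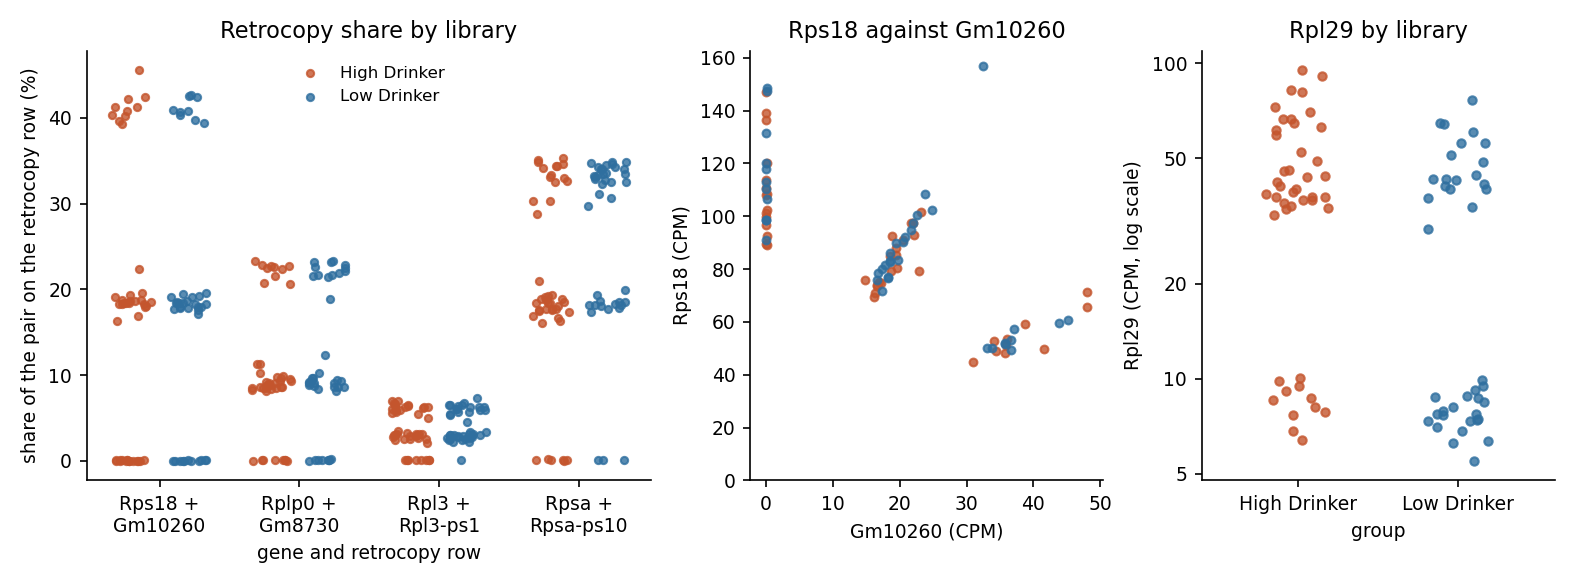
Left, share of gene plus retrocopy counts on the retrocopy row (percent) for 4 pairs; middle, Rps18 against Gm10260 (CPM); right, Rpl29 (CPM, log scale) by group. Points are libraries coloured by group; each pair shows 3 bands, and Rpl29 has 32 libraries at or below 10.1 CPM and 52 at or above 29.9 CPM.

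Genes outside the family were ranked by how closely they followed the ribosomal protein mean. Among 10167 other genes with a mean of at least 10 CPM, the closest were Sod1, the cytosolic superoxide dismutase (r = 0.959), Eef1b2, an elongation factor subunit (0.956), Trappc2l (0.945), Rack1, a scaffold bound to the 40S subunit (0.945), and Pfdn5, a prefoldin chaperone subunit (0.944). Naa38 (0.938), Chmp2a (0.933), Naca (0.932), Mrpl52 (0.931) and Elob (0.929) came next. The strongest opposite relations were with Setd5 (-0.928), Ankrd52 (-0.906), Nsd3 (-0.896), Slc23a2 (-0.889) and Kansl1 (-0.884), of which Setd5 and Nsd3 encode SET domain proteins. The 267 genes with r above 0.8 had a median length of 1472 bases and the 145 with r below -0.8 one of 8401 bases, against 4310 over the 10167 genes and 1499.5 for the ribosomal protein genes.

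The ribosomal protein level tracked this balance of short and long genes from library to library. Its Pearson r with the mean level of the shortest 10% of other genes minus the longest 10% was 0.821 (Spearman rho 0.734, n = 84). It was 0.769 without the 2 libraries farthest from the median of that measure, 0.839 in set 1 and 0.807 in set 2. After a length trend fitted in each library without these genes was removed, the median r over their pairs was 0.739 in place of 0.851. The r of the common level with the short and long balance was then -0.717, so its sign had turned. The level was also compared with the mean of other lists. Pearson r was 0.953 with 20 other mRNAs known to start with a TOP motif, 0.893 with mitochondrial ribosomal proteins and 0.886 with oxidative phosphorylation subunits. With 26 genes of mTOR signalling to translation r was -0.872. The genes within 2 of these lists moved together less, with a median r over pairs of 0.349 for the TOP mRNAs and 0.025 for the mTOR genes. With the mean of translation initiation factors r was 0.449, and with elongation and termination factors 0.187. With the cell type markers it was 0.516 for medium spiny neurons, -0.598 for cortical glutamatergic neurons and 0.089 for oligodendrocytes. It was 0.512 for microglia. Of the technical measures, r was 0.519 with the TMM factor, 0.410 with the share of the ribosomal RNA gene Gm42418 (0.526 in set 1 and 0.182 in set 2) and -0.151 with the log2 total count. High Drinker 11 had 10.2% of its counts on Gm42418, beside 1.84% in the next highest library, High Drinker 8. Spearman's rho was 0.939 for the other TOP mRNAs, -0.846 for the mTOR genes, 0.574 for the medium spiny neuron markers and -0.640 for the cortical markers. In all, r was computed with 25 library measures, and the part of length, tissue makeup or RNA quality in the shared variation was not tested.

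**Figure D4:**
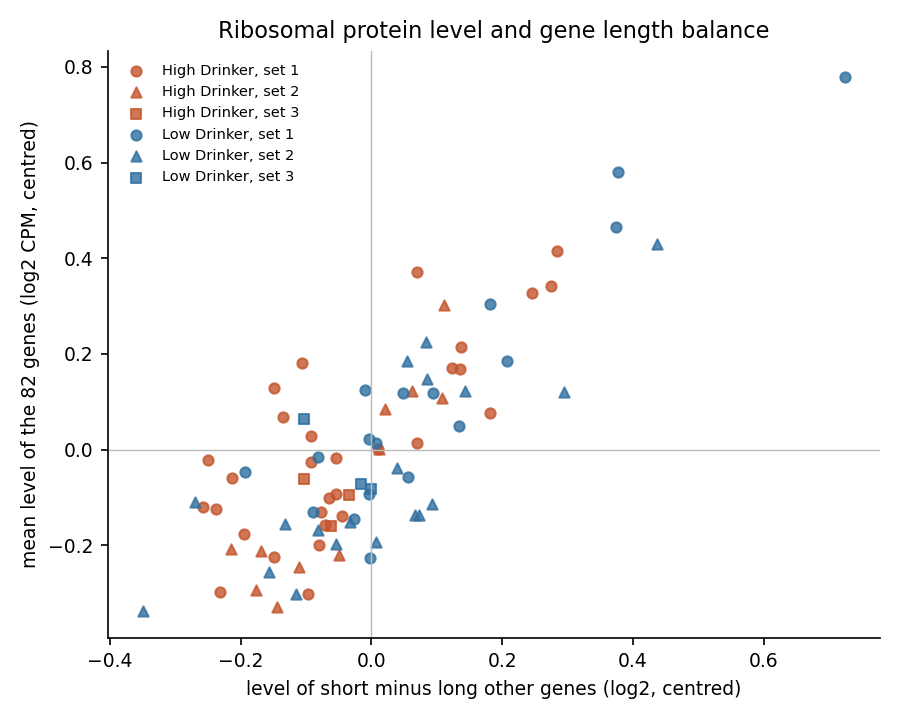
Mean log2 CPM of the 82 genes (y axis, centred) against the mean log2 level of the shortest 10% of other genes minus the longest 10% (x axis, centred). Points are the 84 libraries coloured by group, with symbols for sheet sets; both rise together, with Low Drinker 8 highest on both axes.

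Between the groups, 1 of the ribosomal protein genes passed the test, lower in High Drinker animals. Rps14, a small-subunit protein (ENSMUSG00000024608, chromosome 18), ran from 151 to 257 CPM in High Drinker libraries (median 186) and from 146 to 360 CPM in Low Drinker libraries (median 195). The groups overlapped, with 29 of 44 High Drinker libraries below the Low Drinker median. The means were 188 ± 26.6 CPM (SD, n = 44) and 207 ± 41.2 CPM (SD, n = 40). Rps14 fell by 0.16 ± 0.05 (SE) on the log2 scale in High Drinker animals, with an adjusted p = 0.0401 (edgeR quasi-likelihood test, Benjamini-Hochberg over 17071 genes). It was the only 1 of the 82 genes called, where 2.08% of all tested genes were called lower and 1.86% higher. Without the 5 libraries set apart its log2 fold change was -0.14 (adjusted p = 0.0896). It was -0.21 in set 1 alone (adjusted p = 0.171) and -0.08 in set 2 alone (adjusted p = 0.956). Over the 17 alternative settings its sign was negative in 17, it was called in 8, and its adjusted p ran from 0.000502 to 0.956.

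The other 81 genes did not pass the test, and no test covers the family as a whole. The mean log2 level of the 82 genes per library, centred over all libraries, had medians of -0.042 (High Drinker) and -0.043 (Low Drinker), with no adjustment for set or sex. In the fit with set and sex, the log2 fold change was negative for 76 of the 82 genes, with a median of -0.10 against 0.0013 over all tested genes. At an unadjusted p under 0.05 there were 36 of the 82, beside 18% of all tested genes. The medians were -0.10 for both the 60S and the 40S genes and -0.06 for the stalk. The 30 genes with a small nucleolar RNA gene inside their bounds on the same strand had a median of -0.09 and the other 52 one of -0.10. Because the genes move together, the 82 signs are not 82 independent observations. Short genes in general leaned the same way: the shortest 10% of the other genes had a median of -0.06 and the longest 10% one of 0.05. The median of the 82 genes was -0.13 in set 1 and -0.02 in set 2. No ribosomal protein gene passed the test of that difference between sets, where 0.00586% of all genes did. It was -0.13 in females and -0.03 in males, and -0.07 without the 5 libraries set apart.

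The 4 genes with lower fold changes than Rps14 did not pass the test. Rps2, a small-subunit protein at the mRNA entry site, ran from 82.2 to 256 CPM in High Drinker libraries (median 149) and from 107 to 272 CPM in Low Drinker libraries (median 159), which gave -0.19 ± 0.07 (SE) on the log2 scale and an adjusted p = 0.148. Rps15 ran from 213 to 388 CPM (median 276) and from 223 to 568 CPM (median 298), which gave -0.18 ± 0.06 (SE) on the log2 scale and an adjusted p = 0.0587. Rpl21 and Rpl37a stood at -0.18 and -0.17 (adjusted p = 0.154 and 0.0649). In Rpl21, 36 of 44 High Drinker libraries lay below the Low Drinker median, the group medians being 195 and 226 CPM.

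At the other end was Rpl29, with a median of 38.8 CPM in High Drinker animals (6.38 to 95.1) and 9.71 CPM in Low Drinker animals (5.49 to 76.6). Its log2 fold change was 0.56 ± 0.26 (SE, adjusted p = 0.231), and the groups overlapped over both clusters. Rps4l, an intronless copy of the small-subunit gene Rps4x that GENCODE lists as a transcribed processed pseudogene, had medians of 8.01 CPM (2.98 to 16.1) and 7.25 CPM (2.88 to 13.6). Its log2 fold change was 0.34 ± 0.11 (SE, adjusted p = 0.0698), and 31 of 44 High Drinker libraries lay above the Low Drinker median. Rpl7l1, Rps15a and Rpl34 were near 0, at 0.02, 0.01 and 0.01.

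**Figure D5:**
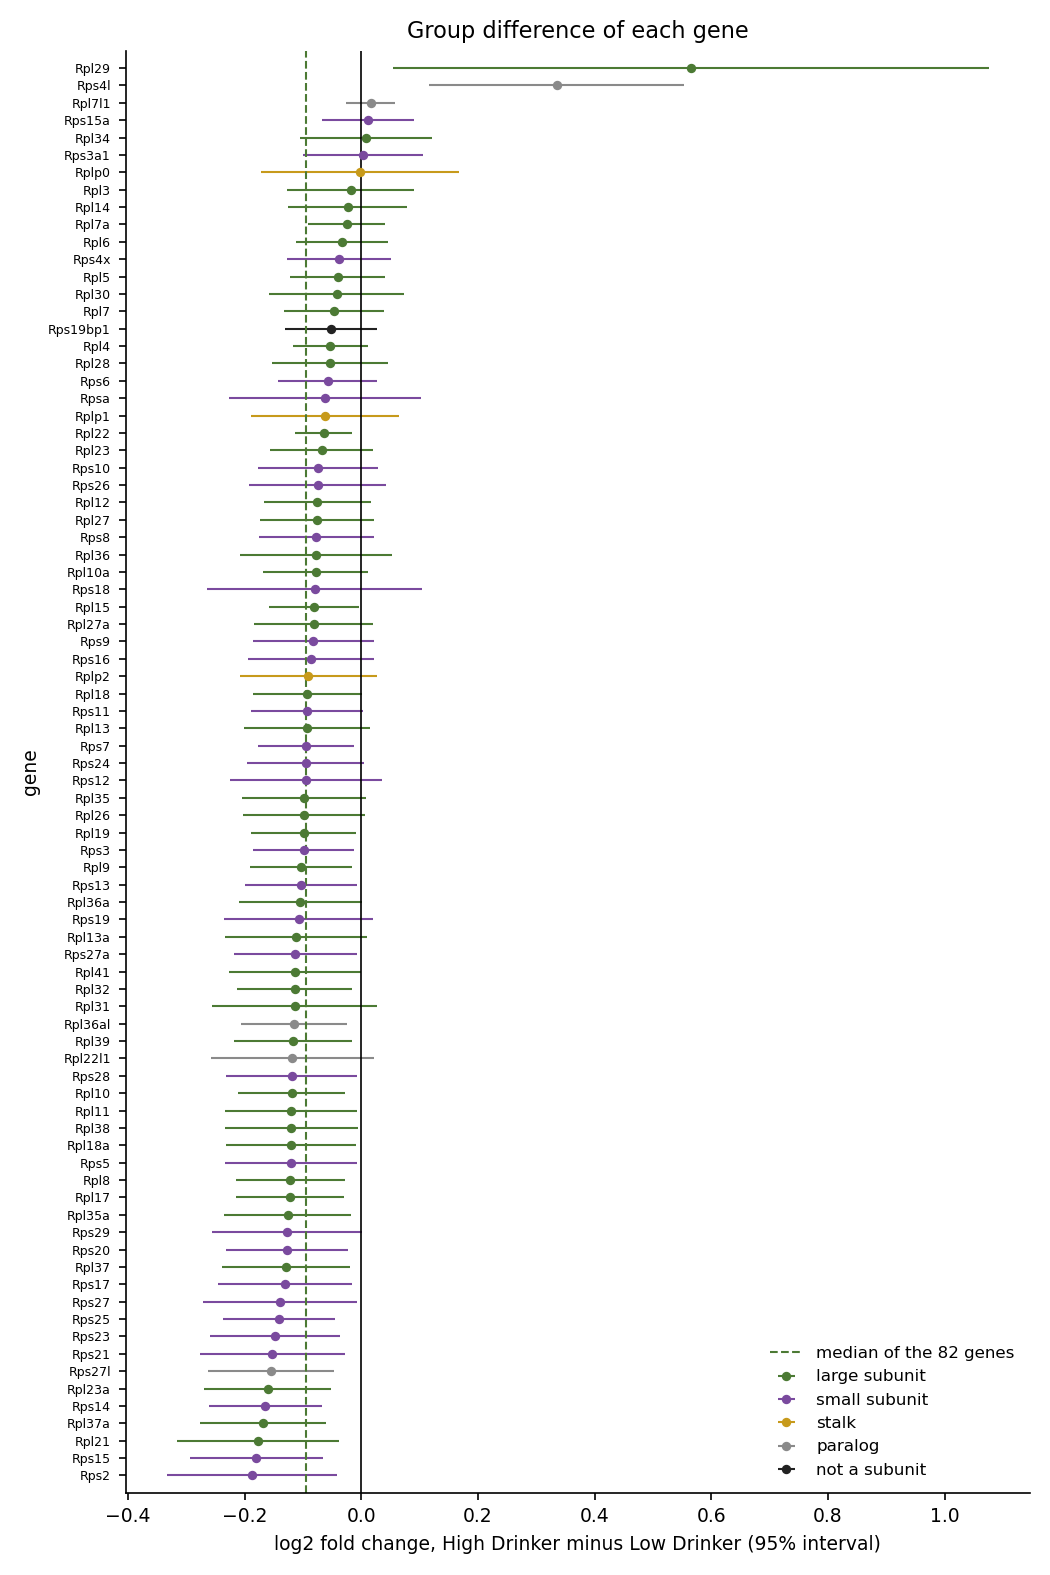
Log2 fold change of each of the 82 genes, High Drinker minus Low Drinker (x axis, points with 95% intervals), sorted and coloured by subunit. The dashed line is the median of -0.10; 76 genes lie below 0, and Rpl29 and Rps4l stand apart above it.

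Of the 18 medium spiny neuron markers, 16 had positive signs in the same comparison with a median of 0.13 and 0 called, and the part of these cells in the values above was not tested.

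The calls depended on what else was in the model. With the medium spiny neuron marker score as a covariate, 19 of the 82 genes were called lower and 0 higher, where 3.36% and 2.64% of all genes were. With 5 surrogate variables, 46 were called lower and 2 higher (Rpl29 and Rps4l), where 7.28% and 7.18% of all genes were. The median log2 fold change was -0.12 and -0.08 in these fits. With the length trend as an offset it was -0.06, Rps14 was called lower and Rps4l higher, where 1.91% and 1.55% of all genes were. DESeq2 called Rps14 and Rps15 lower (2.72% of all genes). With other scaling factors, TMM computed without the 82 genes, without High Drinker 11 and with retrocopy rows added, Rps14 was called lower, where 2.21, 2.04, 2.09 and 2.08% of all genes were. None was called lower with no expression filter (1.04%), limma-voom (1.89%), no set term (2.83%), set 1 alone (0.221%), set 2 alone (0.186%), without set 3 (1.77%), females alone (0.0971%), males alone (0.293%) or without the 5 libraries (1.19%). The genes of the 82 at an unadjusted p under 0.05 numbered 11 with no set term, 61 with surrogate variables, 60 with the marker score and 22 with the length offset, where 20.5, 29.6, 21.7 and 16.3% of all genes were. They numbered 0 in set 2, 21 in females, 2 in males and 19 without the 5 libraries, where 6.44, 7.97, 16.4 and 13.6% of all genes were.

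The paralogs replace or resemble a standard subunit. Rpl22l1 was at 53.9 CPM beside 87.4 for its parent Rpl22, Rps27l at 7.54 beside 142 for Rps27, Rpl36al at 17.6 beside 68.1 for Rpl36a, Rpl7l1 at 39.4 beside 184 for Rpl7 and Rps4l at 8.13 beside 227 for Rps4x, each as a mean CPM over 84 libraries without length scaling. Rpl22l1 was the most variable of the 4 that GENCODE lists as protein coding, from 21.5 to 88.7 CPM, and Rpl7l1 the least, from 33.5 to 46.3 CPM with a coefficient of variation of 6.55%. None was called between the groups. Coding sequence identity was 76.1% for Rps27 with Rps27l and 87.9% for Rpl36a with Rpl36al. Coding bases 22 to 171 of the closer pair, on chromosomes X and 12, are shown with differing bases in capitals, to set their spread of differences beside the near-identical retrocopies above.
Rpl36a: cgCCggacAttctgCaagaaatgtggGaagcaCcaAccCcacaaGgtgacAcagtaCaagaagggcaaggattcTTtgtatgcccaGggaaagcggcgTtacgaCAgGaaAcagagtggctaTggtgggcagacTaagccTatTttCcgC
Rpl36al: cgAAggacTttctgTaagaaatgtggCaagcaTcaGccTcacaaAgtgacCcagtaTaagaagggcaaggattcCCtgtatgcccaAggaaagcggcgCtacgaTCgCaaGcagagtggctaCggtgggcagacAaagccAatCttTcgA
The stretch holds 25 differences between the paralogs, beside 3 for Rps18 with Gm10260 and 4 for Rplp0 with Gm8730.

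The remaining genes of interest also showed no call. Rplp0, Rplp1 and Rplp2 had log2 fold changes of -0.0023, -0.06 and -0.09, and Rpsa one of -0.06. The sign for Rplp0 was the same in 8 of the 17 alternative settings and that for Rplp1 in 15. The 3 genes inside chromosome 4 130 to 160 Mb and chromosome 9 40 to 60 Mb, intervals singled out in earlier results of these data, were Rpl11 (-0.12, adjusted p = 0.253), Rpl22 (-0.06, adjusted p = 0.134) and Rps25 (-0.14, adjusted p = 0.0854). None of the 82 lay in chromosome 1 150 to 180 Mb.

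The lists of genes around the ribosome are given beside the whole table, where 1.86% of genes were called higher and 2.08% lower. Of 38 translation initiation factors, 1 rose (Eif4g3, a scaffold of the cap-binding complex, log2 fold change 0.20, adjusted p = 0.0261) and 2 fell (Eif2b3, -0.14, adjusted p = 0.00632, and Eif2b2, -0.09, adjusted p = 0.0448), both subunits of the eIF2B exchange factor. None of 13 elongation and termination factors, 20 other TOP mRNAs, 7 fusion genes and ribosome-bound partners or 26 mTOR pathway genes was called. Their medians were 0.0031, -0.03, -0.06 and 0.03. Of 50 tested ribosome biogenesis factors, 2 rose: Polr1a, the largest subunit of RNA polymerase I, which transcribes ribosomal RNA, from 36.7 ± 4.42 to 42.9 ± 6.09 CPM (SD, n = 40 and 44; log2 fold change 0.24, adjusted p = 7.01e-05), and Ncl, nucleolin, from 271 ± 33 to 296 ± 25.3 CPM (log2 fold change 0.12, adjusted p = 0.0260). For Polr1a, 37 of the 44 High Drinker libraries exceeded the median of the Low Drinker libraries. Of 75 nuclear oxidative phosphorylation subunits 5 fell, among them Cox5a (-0.20, adjusted p = 0.000408) and Ndufa8 (-0.15, adjusted p = 0.0112), and the list's median was -0.08. Of 76 mitochondrial ribosomal proteins 3 fell and 1 rose (Mrpl35, log2 fold change 0.17), Mrps14 (-0.18, adjusted p = 0.00168), Mrpl28 (-0.15) and Mrps10 (-0.10) falling, with a median of -0.05. Psmb7 (-0.12, adjusted p = 0.0108) fell among 14 proteasome core subunits. Eif4g3, Cox5a and Mrps14 lie inside the intervals given above, on chromosomes 4, 9 and 1 in that order. The part of location in these calls was not tested. Of 22 tested ribosomal protein pseudogenes, Rps10-ps1 (-0.51, adjusted p = 0.0274) and Rpl14-ps1 (-0.53, adjusted p = 0.0397) fell. Their levels were low, with High Drinker and Low Drinker means of 0.373 and 0.510 CPM for Rps10-ps1 and 3.86 and 5.16 CPM for Rpl14-ps1. Rpl14-ps1 shares 100-base stretches with Rpl14, so its count is uncertain.

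Sex, set and spread were compared in the same libraries. Between males and females, 0 of the 82 genes were called, where 0.0996% of all genes were (edgeR). The sign was positive, toward males, in 78, with a median of 0.04, and 2 reached an unadjusted p under 0.05, beside 4.03% of all genes. Without the 5 libraries set apart, 30 did, beside 5.73% of all genes, again with 0 called, and with no set term 5 did, beside 7.06%. No gene of the 17071 was called for the interaction of group and sex, and 0 of the 82, beside 5.65% of all genes, had an unadjusted p under 0.05. Between set 2 and set 1, 33 of the 82 genes fell, where 12.2% of all genes did, and 81 of the 82 signs were negative with a median of -0.14. Rpl35a, a large-subunit protein, had the lowest adjusted p (log2 fold change -0.29, adjusted p = 0.000757). Without the 5 libraries the count was 3 (Rps27, Rpl35a and Rpl17), where 4.72% of all genes were called lower. Variability between the groups, tested with limma on absolute deviations, was called for 0 of the 82 genes, where 0.0117% of all genes were. The fitted difference was negative, toward less spread in High Drinker animals, in 77 of the 82 genes, and 1 gene reached an unadjusted p under 0.05, beside 3.95% of all genes. Its median was -0.029 for the 82 genes and -0.011 over all tested genes. Without the 5 libraries set apart, again 0 of the 82 were called. The genes move together, so the sign counts for sex, set and spread are not 82 independent observations either.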

How the data were processed

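Per the labels' protocols, total RNA of dissected ventrolateral striatum was amplified as cDNA and sequenced in single-end runs, 1 library for each of 84 mice. The deposited file holds raw read counts per gene, made by the authors. The submitters' processing notes name FastQC, STAR, Subread with featureCounts, edgeR and mm10. Versions, strandedness and the treatment of multi-mapped reads are, in the sources used here, not given. Of the 82 genes, 19 overlap an exon on the opposite strand and 6 one on the same strand, and how such reads were counted is likewise not given. Total counts per library were 22190363 to 41300401. No pair of libraries was identical, and 0 columns lacked a sample. Symbols were found for 42462 identifiers in GENCODE M21.

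Groups and sex come from the labels. That the 3 runs of sample numbers are batches is an inference. The group, sex, set and interaction tests used the quasi-likelihood test of edgeR 4.0.16 (R 4.3.3) with TMM factors and filterByExpr, with set, sex and group as terms. All 82 genes were among the 17071 tested, and p-values were adjusted by Benjamini-Hochberg over all of them at 0.05. For variability, limma 3.58.1 was fitted to each animal's absolute deviation in log2 CPM. Alternatives used DESeq2 1.42.0, limma-voom and sva 3.50.0 (5 surrogate variables). The fits were tested on simulated counts. CPM are counts scaled to library size after TMM. Correlations used log2 CPM (prior count 2) after removal of set, sex and group. The length trend was a lowess curve (span 0.3) in each library. Retrocopies were pseudogenes or single-exon predicted genes that share 100-base stretches with a gene's transcripts. Other versions were Python 3.11.15, numpy 2.4.6, pandas 2.3.3, matplotlib 3.10.9 and scipy 1.17.1.

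The genes and lists were chosen with earlier results of these data known. The genes named are those past a test, the 5 highest and 5 lowest by fold change, by r with the others and by level per length, the stalk genes, Rpsa, the paralogs with their parents, genes in 3 chromosome intervals, the 10 closest and 5 most opposite other genes, and up to 3 called genes per pathway list. Rpl3, Rps18 and the retrocopies were added after their values were seen. 1 gene that this rule names is not reported here.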

Additional observations from a re-analysis of the deposited data

How the results depend on the processing

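No paired analysis was possible because the labels give no replicate numbers that match animals across the groups. The group difference was recomputed under 17 alternatives, 1 of them added after the data were seen. Rps14 lost its call, leaving 0 genes lower, with no expression filter, limma-voom, no set term, set 1 alone, set 2 alone, without set 3, females alone, males alone and without the 5 libraries. Genes called lower were 2 with DESeq2 (Rps14 and Rps15), 19 with the marker score and 46 with 5 surrogate variables, and genes called higher were 2 with the surrogate variables and 1 with the length offset. Genes at an unadjusted p under 0.05 numbered 36 in the model described, 11 with no set term, 61 with surrogate variables, 60 with the marker score, 22 with the length offset, 0 in set 2, 21 in females, 2 in males and 19 without the 5 libraries. Over all genes, 1.86% higher and 2.08% lower became 7.18 and 7.28% with surrogate variables, 0.803 and 1.04% of the larger set tested with no filter, 0.238 and 0.221% in set 1, 0.273 and 0.186% in set 2, 0.115 and 0.0971% in females and 0.36 and 0.293% in males. Those lower became 3.36% with the marker score and 1.19% without the 5 libraries. Subsets hold fewer animals, and the cause of these changes was not tested in any setting. The median log2 fold change of the 82 genes stayed negative in all 17, from -0.13 to -0.02. Of the 82 genes, 53 kept their sign in all 17 settings and 29 did not, among them Rplp0 (same sign in 8 settings, -0.06 to 0.11), Rps3a1 (12), Rpl3 (14), Rplp1 (15) and Rps18 (16). Of the genes with the 5 highest or 5 lowest fold changes, the sign turned for Rpl21 (0.0090 in set 2), Rpl34 (-0.015 with the marker score, -0.0022 in set 1, -0.024 in females), Rpl7l1 (-0.016 in set 1) and Rps15a (-0.018 with the length offset, -0.0098 without set 3, -0.0096 in females). For sex, genes at an unadjusted p under 0.05 went from 2 to 30 without the 5 libraries and 5 with no set term. Between sets, 33 genes lower became 3 without the 5 libraries, and over all genes 12.9% higher and 12.2% lower became 4.29 and 4.72%. The median r over pairs ran from 0.739 with the length trend removed to 0.882 with library totals alone.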
